A study of Mus musculus with 33 samples.

Results

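The 34 genes described here encode the proteins that bring fatty acids into the mouse cardiac myocyte, carry them into the mitochondrion and oxidise them, together with the regulators of that pathway. They were chosen by name for their role in the pathway, with earlier results of these data already known. All 34 were found among the 22970 genes of the 3′-end table, and all 34 passed the filter on low values. Cardiac myocytes of wild-type mice (WT) were compared with those of mice carrying an RBFox2 knockout (KO), both on a Black Swiss background. RBFox2 binds RNA and controls which exons are spliced in. Gene expression was measured at 9 weeks of age by 3′-end RNA sequencing (MAPS), with 3 libraries per genotype. Splice events were followed by RASL-seq at ages 5, 9 and 18 weeks, with 3 libraries per genotype and age. RASL-seq counts pairs of DNA probes that are ligated across a splice junction, and reports the short and the long isoform of an event separately. Of its 3885 events, 5 lie in 4 of the 34 genes. The labels give 1 sample per group and do not say whether its 3 libraries came from separate animals, so the p-values measure the spread between libraries only. The driver of the knockout and the deleted part of the gene are not given in the sources used here.

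Long-chain fatty acids are the main fuel of the adult heart. They are released from lipoproteins or from stored triglyceride, enter the myocyte through membrane carriers, are activated to acyl-CoA and cross the inner mitochondrial membrane as carnitine esters. Each turn of the β-oxidation spiral then runs through a dehydrogenase, a hydratase, a second dehydrogenase and a thiolase, and the electrons of the first step reach the respiratory chain through the electron transfer flavoprotein. Malonyl-CoA blocks entry at the carnitine step, and nuclear receptors of the PPAR family with the coactivator PGC-1α set the level of the genes.

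Depth ranged from 4007538 to 9563471 recovered reads per 3′-end library. Levels are given in RP10M, the reads of a gene scaled to 10000000 per library, and differences as the KO minus WT difference of log2(RP10M + 1), with its standard error (SE). Values with ± are the mean and SD of 3 libraries. Rbfox2 stood at 323, 297 and 214 RP10M in the WT libraries and 117, 81.7 and 66.4 in the KO libraries. It was lower in every KO library and fell by 1.66 on the log2 scale (SE 0.30, limma adjusted p = 0.0233). The adjusted p was 0.0537 and 0.0986 without WT library 1 or 2, and 0.134 and 0.15 without KO library 2 or 3. Rbfox1 was also lower in every KO library, with 959 ± 228 RP10M in WT and 299 ± 73.9 in KO. Its difference was -1.68 (SE 0.24, limma adjusted p = 0.0106), and its part in the other differences was not tested. The summed signal of 10 ventricular myocyte markers lay at 1064211 to 1259960 RP10M in WT and 1162769 to 1224662 in KO, so the labelled cell type carried its defining genes in every library. Of the 10, Myl2 passed lower in KO (difference -0.82, adjusted p = 0.00579), and 4 had an unadjusted p under 0.05. Besides Myl2 these were Actc1, Myl3 and Mybpc3, which were higher in KO without passing (differences 0.53, 0.52 and 0.62). By sign 6 of the 10 were higher and 4 lower. The summed signal of 7 atrial markers lay at 784 to 2371 in WT and 17953 to 33871 in KO, with 4 of 6 tested passing and Bmp10 at 0 in all 6 libraries. Nppa alone made up most of the atrial sum. It ranged from 594 to 1659 across the WT libraries and from 14503 to 29427 across the KO libraries. Of the 6 atrial markers tested, 5 were higher in KO without overlap. Kcnj3 went the other way, lower in every KO library without passing (difference -2.49, limma adjusted p = 0.187). In these bulk samples, fewer cells of a type and less RNA per cell cannot be told apart.

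Among the 34 genes, Cpt1a rose and Acadm fell in KO at week 9, and the other 32 did not pass the test. A gene passed at a limma p adjusted over all 10858 genes tested of under 0.05. Of those genes, 1.6% passed, 1.21% higher and 0.396% lower. 24 of the 34 were lower in KO by the sign of the difference, and their median was -0.25, against 44.8% lower and a median of 0.07 over all genes tested. For 12 of the 34 genes the KO and WT libraries did not overlap, 10 of them lower and 2 higher in KO. That is 35.3% of them, where 23.3% of all genes tested did not overlap (9.25% lower and 14.1% higher). The share was 38.1% of 42 nuclear genes of oxidative phosphorylation, 23.5% of 17 TCA cycle genes and 60.9% of 23 glycolysis and glucose uptake genes. 10 of the 34 (29.4%) had an unadjusted p under 0.05, as had 17.1% of all genes tested. On the recovered reads, edgeR passed Cpt1a alone among the 34, and DESeq2 passed Cpt1a, Acadm, Cd36 and Etfa. Over all genes limma passed 131 higher and 43 lower, and with TMM scaling of the values 105 higher and 56 lower. With that scaling 27 of the 34 were lower by sign, and their median was -0.32.

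**Figure D1:**
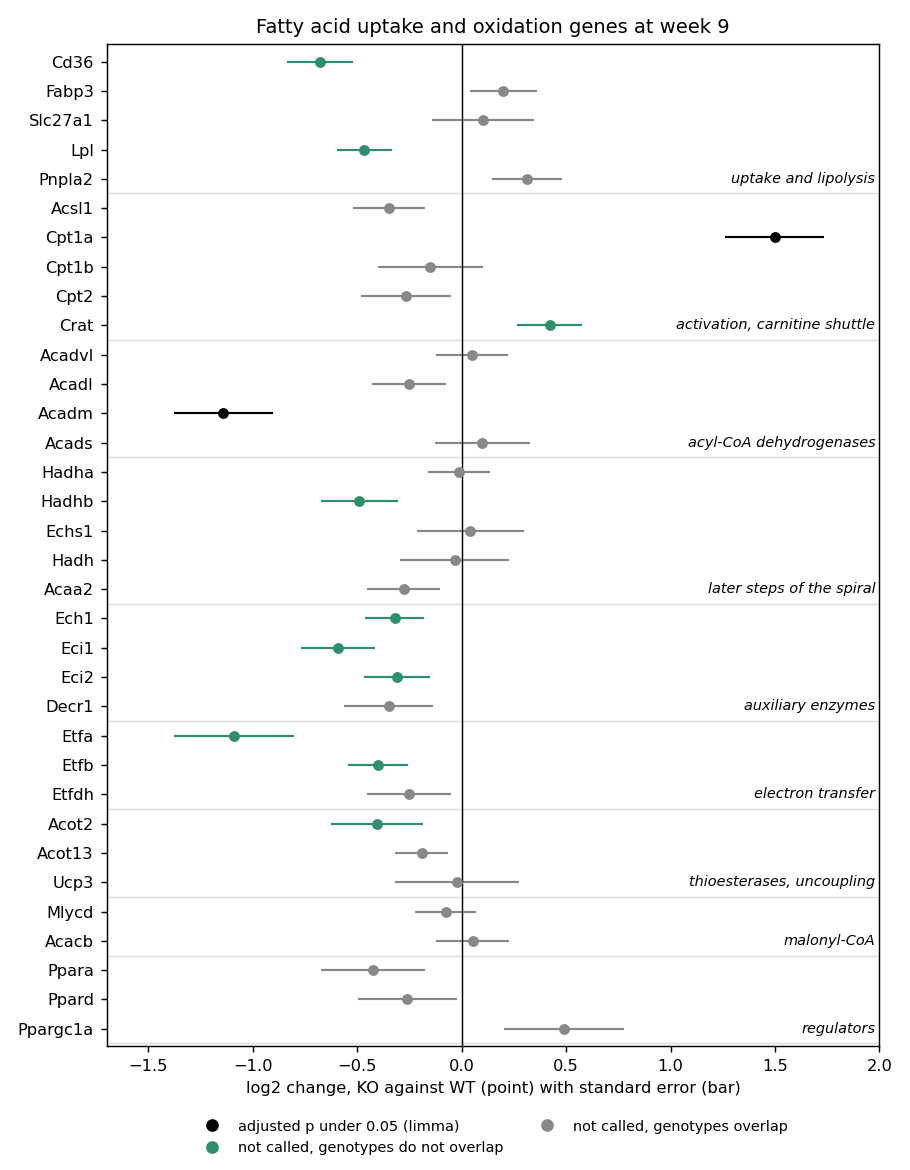
Difference of each of the 34 genes between KO and WT at week 9, on the log2 scale (x axis, point) with its standard error (bar), in order of role (y axis). Cpt1a at 1.50 and Acadm at -1.14 passed the test (black), green points did not pass but had no overlap between genotypes, and all 7 auxiliary and electron transfer genes lie left of 0.

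Of the 5 genes of uptake and lipolysis, none passed limma's test, and 2 (Cd36 and Lpl) had an unadjusted p under 0.05. Cd36 encodes a membrane receptor that takes up long-chain fatty acids. It stood at 1850.0, 1495 and 1671 RP10M in the WT libraries and 1073, 1081 and 969.9 in the KO libraries. Every KO library lay below every WT library (difference -0.68, SE 0.16, adjusted p = 0.0705). Lpl encodes lipoprotein lipase, which frees fatty acids from circulating triglyceride. It stood at 16131, 19428 and 19796 RP10M in the WT libraries and 13317, 12661 and 13964 in the KO libraries. Again the genotypes did not overlap (difference -0.47, SE 0.13, adjusted p = 0.114). Fabp3, the fatty acid-binding protein of heart muscle, stood at 52875, 48459.6 and 36945 RP10M in the WT libraries and 58582, 45169.5 and 54205 in the KO libraries. The genotypes overlapped (difference 0.20, SE 0.16, adjusted p = 0.57). The fatty acid transporter gene Slc27a1 gave 324 ± 52.2 RP10M in WT and 352 ± 79.3 in KO, and its libraries overlapped as well (difference 0.10, SE 0.24, adjusted p = 0.878). Pnpla2, which encodes the adipose triglyceride lipase that opens stored triglyceride, stood at 13059 ± 2809 RP10M in WT and 16011 ± 1507 in KO. KO was higher by sign and overlapped WT (difference 0.31, SE 0.17, adjusted p = 0.386).

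Endothelial cells and adipocytes also express Cd36, and adipocytes express Lpl and Pnpla2. The summed signal of 12 endothelial markers lay at 4008 to 8979 RP10M in WT and 4661 to 6544 in KO, and none of the 12 passed limma's test, with 1 at an unadjusted p under 0.05. Its part in the Cd36 difference was not tested. The sum of 8 adipocyte markers lay at 16.3 to 21.9 RP10M in WT and 0 to 10.7 in KO, none passed the filter on low values, and Cidec, Lep and Acvr1c were at 0 in all 6 libraries.

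Of the 5 genes of activation and carnitine transport, Cpt1a rose and the other 4 did not pass. Cpt1a encodes the isoform of carnitine palmitoyltransferase 1 that is typical of liver and of the fetal heart. The enzyme makes acylcarnitine at the outer mitochondrial membrane and is the step that malonyl-CoA inhibits. Cpt1a stood at 171, 130.3 and 115 RP10M in the WT libraries and 347, 398 and 424 in the KO libraries. The lowest KO library lay far above the highest WT library, and the mean rose by 2.82-fold on the log scale (log2 difference 1.50, SE 0.24, limma adjusted p = 0.0164). Without WT library 2 the adjusted p was 0.0663, and it was 0.0566, 0.11 and 0.13 without KO library 1, 2 or 3. The difference itself lay between 1.37 and 1.66 when any 1 of the 6 libraries was left out.

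Cpt1b encodes the muscle isoform of the same enzyme, the main one of the adult heart. It stood at 3678, 2425 and 1905 RP10M in the WT libraries and 2989, 1965 and 2113 in the KO libraries. The genotypes overlapped and the test did not pass (difference -0.15, SE 0.25, adjusted p = 0.812). Within each library, Cpt1a gave 4.65, 5.37 and 6.04 units of signal per 100 of Cpt1b in WT and 11.6, 20.2 and 20.1 in KO. Every KO library lay above every WT library in this ratio, which was not tested. The ratio serves to compare libraries and not the levels of the 2 genes. Crat encodes carnitine acetyltransferase, which buffers the acetyl-CoA pool. It stood at 5805, 4938 and 4139.7 RP10M in the WT libraries and 6899.5, 6337 and 6533 in the KO libraries. KO was above WT without overlap, and the difference did not pass (difference 0.42, SE 0.16, adjusted p = 0.195). Acsl1, the main long-chain acyl-CoA synthetase of the heart, gave 4211 ± 809 RP10M in WT and 3281 ± 368 in KO (difference -0.35, SE 0.17, adjusted p = 0.344). Cpt2, which turns acylcarnitine back into acyl-CoA inside the mitochondrion, gave 638 ± 132 RP10M in WT and 525 ± 65.8 in KO (difference -0.27, SE 0.22, adjusted p = 0.577). Both overlapped between genotypes.

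**Figure D2:**
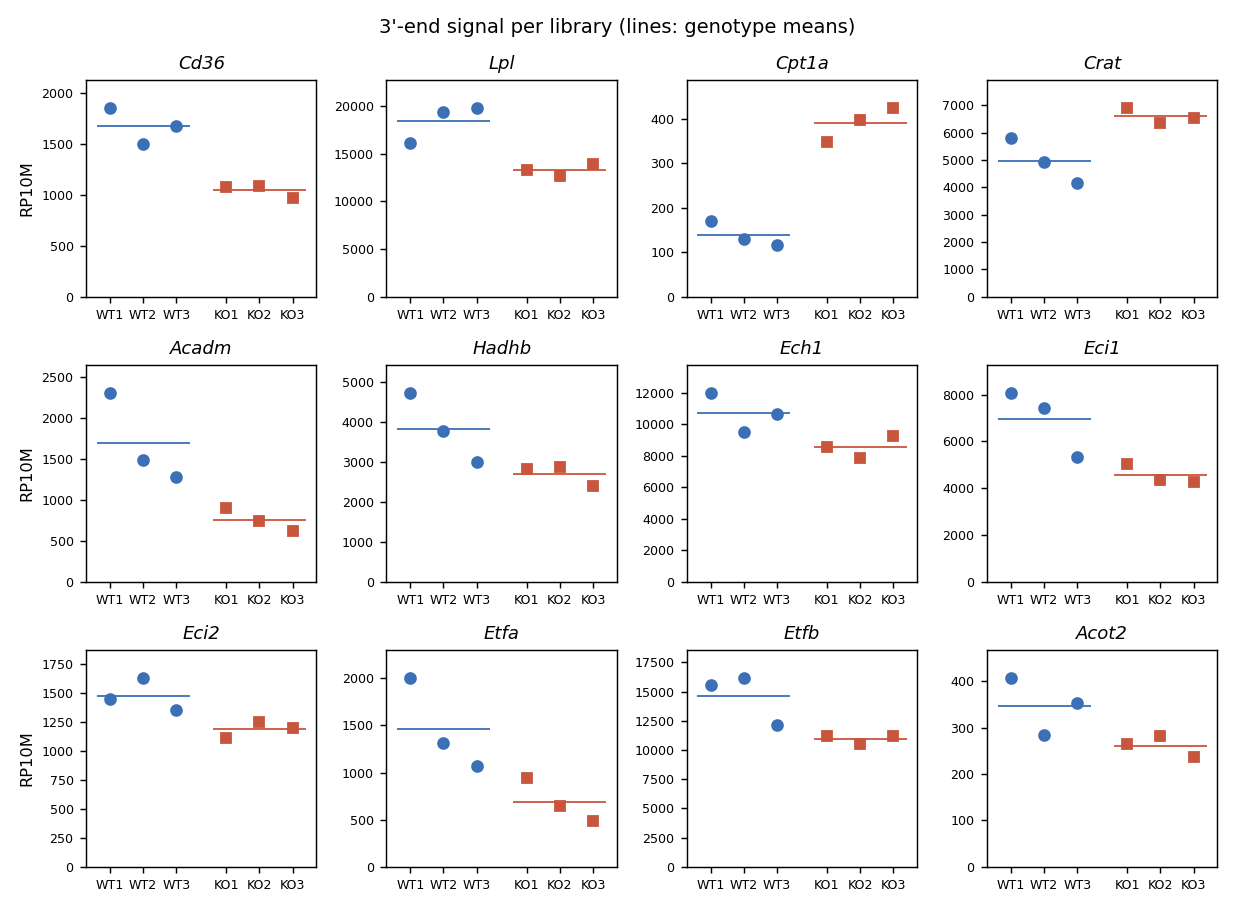
3′-end signal in RP10M (y axis, from 0) in each WT and KO library (x axis) for the 12 genes whose genotypes did not overlap, with lines at the genotype means. Cpt1a and Crat lie higher in all 3 KO libraries and the other 10 lie lower, with Acadm at 612 to 893 in KO against 1272 to 2299 in WT.

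Of the 4 acyl-CoA dehydrogenases, which carry out the first step of the spiral on chains of different length, Acadm fell and the other 3 did not pass. Acadm encodes the medium-chain enzyme. It stood at 2299, 1489 and 1272 RP10M in the WT libraries and 893, 742 and 612 in the KO libraries. The highest KO library lay below the lowest WT library, and WT library 1 lay above the other WT libraries. The mean fell by 1.14 on the log2 scale, WT being 2.2-fold above KO (SE 0.24, limma adjusted p = 0.0441). This call sat close to the threshold. The adjusted p was 0.0712 without WT library 1, 0.114 without WT library 2, and 0.0883, 0.186 and 0.266 without KO library 1, 2 or 3, while the difference stayed between -1.32 and -0.89. With a pseudocount of 0.1 it was 0.0514, and edgeR on the recovered reads gave 0.053.

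The long-chain gene Acadl gave 12606 ± 1963 RP10M in WT and 10638 ± 2214 in KO (difference -0.25, SE 0.18, adjusted p = 0.514). The very-long-chain gene Acadvl gave 10581 ± 2081 RP10M in WT and 10897 ± 1563 in KO (difference 0.050, SE 0.17, adjusted p = 0.919), and the short-chain gene Acads 444 ± 78.0 RP10M in WT and 478 ± 105 in KO (difference 0.10, SE 0.23, adjusted p = 0.874). All 3 overlapped between genotypes, and the sign of the Acadvl difference turned to -0.019 with TMM scaling. Per 100 units of Acadl signal, Acadm gave 15.96, 11.5 and 12.1 in WT and 6.78, 7.72 and 6.70 in KO. Per 100 units of Acadvl signal it gave 17.8, 14.9 and 14.4 in WT and 7.27, 8.05 and 5.47 in KO. In both ratios, which were not tested, WT and KO did not overlap, and WT library 1 stood closer to the other WT libraries in the ratio to Acadvl than in the Acadm level alone.

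The promoters of the 2 genes that passed are shown because both hold a match to a single repeat of the PPAR response element, AGGTCA on either strand. Of the 34 genes, 28 had 31 promoter windows of 300 bases in RefSeq (GRCm38.p6, 250 bases before to 50 after the gene's start). The full element AGGTCANAGGTCA was in none of the 31 windows and in 0.0396% of all 32851 windows. The single repeat AGGTCA was in 7 of the 31, those of Acacb, Acadm, Acadvl, Cd36, Cpt1a, Echs1 and Ucp3, and in 16.3% of all windows. The match begins at base -249 of Acadm (chr3:153944594-153944893, minus strand) and at base -94 of Cpt1a (chr19:3323051-3323350, plus strand). Capitals mark it in these sequences, written 5′ to 3′ along the gene.
Acadm: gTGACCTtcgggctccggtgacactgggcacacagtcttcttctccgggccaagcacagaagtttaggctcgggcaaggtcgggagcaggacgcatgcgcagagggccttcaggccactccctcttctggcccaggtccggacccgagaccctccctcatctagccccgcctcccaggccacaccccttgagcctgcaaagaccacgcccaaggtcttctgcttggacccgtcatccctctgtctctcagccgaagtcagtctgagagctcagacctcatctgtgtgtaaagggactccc
Cpt1a: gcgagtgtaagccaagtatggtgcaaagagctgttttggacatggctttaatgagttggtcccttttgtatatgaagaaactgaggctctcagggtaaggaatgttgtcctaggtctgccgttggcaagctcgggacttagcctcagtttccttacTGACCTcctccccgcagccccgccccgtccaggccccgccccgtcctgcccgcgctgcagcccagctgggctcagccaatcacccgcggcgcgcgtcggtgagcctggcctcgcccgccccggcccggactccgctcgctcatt
The letters are a description of these windows and not a binding site. The estrogen-related receptor element TCAAGGTCA was in none of the 31 windows and in 0.423% of all. The GC box GGGCGG was in 20 of the 31 and in 35.7% of all windows.

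Of the 5 genes of the later steps of the spiral, none passed limma's test, and 1 (Hadhb) had an unadjusted p under 0.05. Hadha and Hadhb encode the α and β subunits of the mitochondrial trifunctional protein, which carries out these steps on long chains. Hadha stood at 15739, 13623 and 11394 RP10M in the WT libraries and 14346, 12891 and 12889 in the KO libraries. The libraries overlapped and the difference was near 0 (difference -0.012, SE 0.15, adjusted p = 0.98). Hadhb stood at 4731, 3789 and 2996 RP10M in the WT libraries and 2822, 2874 and 2393 in the KO libraries. Here the genotypes did not overlap, with KO lower (difference -0.49, SE 0.19, adjusted p = 0.207). Within each library, Hadhb gave 30.1, 27.8 and 26.3 units of signal per 100 of Hadha in WT and 19.7, 22.3 and 18.6 in KO. All 3 KO libraries lay below the WT libraries in this ratio, which was not tested.

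The Hadhb promoter is shown because the pair are divergent neighbours. The Hadhb window (chr5:30155003-30155302, plus strand) shares 228 bases with the Hadha window (chr5:30154931-30155230, minus strand), marked in capitals.
Hadhb: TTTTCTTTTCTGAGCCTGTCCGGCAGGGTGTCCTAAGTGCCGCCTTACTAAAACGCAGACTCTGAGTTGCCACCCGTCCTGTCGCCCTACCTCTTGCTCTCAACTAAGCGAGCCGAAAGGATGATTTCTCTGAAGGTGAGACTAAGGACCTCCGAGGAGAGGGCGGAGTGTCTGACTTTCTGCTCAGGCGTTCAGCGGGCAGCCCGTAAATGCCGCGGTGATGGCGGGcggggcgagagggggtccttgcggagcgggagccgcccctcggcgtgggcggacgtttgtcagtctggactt

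Echs1, the short-chain enoyl-CoA hydratase, stood at 11990.0, 5783 and 11765 RP10M in the WT libraries and 9577, 9501 and 9758 in the KO libraries. WT library 2 alone was low, the KO libraries were nearly equal, and the genotypes overlapped (difference 0.041, SE 0.26, adjusted p = 0.962, turning to -0.029 with TMM scaling). Hadh, the short-chain hydroxyacyl-CoA dehydrogenase, gave 1012 ± 303 RP10M in WT and 987 ± 279 in KO (difference -0.034, SE 0.26, adjusted p = 0.967). Acaa2, a thiolase gene of the spiral, gave 14592 ± 2796 RP10M in WT and 11969 ± 1813 in KO (difference -0.28, SE 0.17, adjusted p = 0.461). Both overlapped between genotypes.

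**Figure D3:**
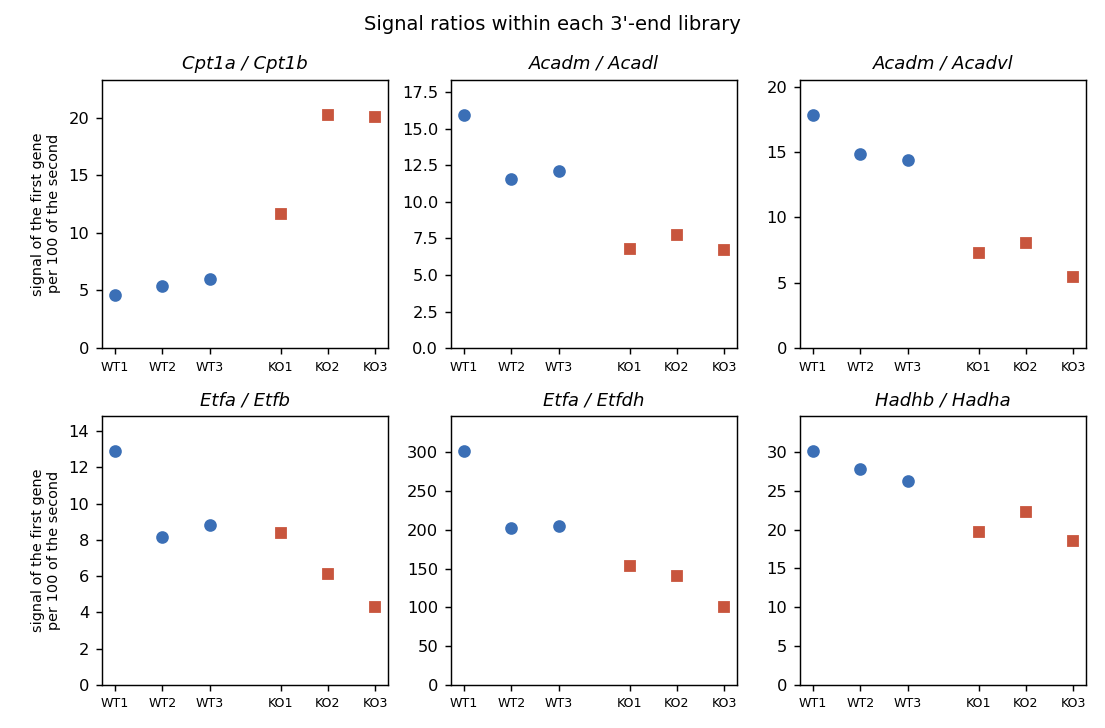
Signal of 1 gene per 100 units of signal of a partner gene (y axis, from 0) in each 3′-end library (x axis), for 6 pairs. Cpt1a per Cpt1b is higher in all 3 KO libraries (11.6 to 20.2 against 4.65 to 6.04), Acadm and Hadhb are lower against their partners, and Etfa per Etfb overlaps between genotypes.

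The 4 auxiliary enzymes of unsaturated fatty acids were all lower in KO by sign, and none passed limma's test, with 2 (Ech1 and Eci1) at an unadjusted p under 0.05. Eci1 and Eci2 encode enoyl-CoA isomerases, Ech1 a dienoyl-CoA isomerase and Decr1 a dienoyl-CoA reductase. Eci1 stood at 8066, 7448 and 5320.2 RP10M in the WT libraries and 5026, 4347 and 4279.6 in the KO libraries. The genotypes did not overlap, and it had the smallest adjusted p of the 4 (difference -0.59, SE 0.18, adjusted p = 0.126). Ech1 gave 10689 ± 1242 RP10M in WT and 8540.0 ± 695 in KO (difference -0.32, SE 0.14, adjusted p = 0.28), and Eci2 1471 ± 140.3 RP10M in WT and 1183 ± 70.9 in KO (difference -0.31, SE 0.16, adjusted p = 0.349). Neither overlapped between genotypes, whereas Decr1 did, with 2169 ± 614 RP10M in WT and 1658 ± 159 in KO (difference -0.35, SE 0.21, adjusted p = 0.45).

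The 3 genes of electron transfer were also all lower by sign, none passed limma's test, and 2 (Etfa and Etfb) had an unadjusted p under 0.05. Etfa and Etfb encode the subunits of the electron transfer flavoprotein, and Etfdh the dehydrogenase that hands its electrons to ubiquinone. Etfa stood at 2001, 1317 and 1072 RP10M in the WT libraries and 938, 645 and 481 in the KO libraries. The KO libraries lay below every WT library, the spread was wide in both groups, and the difference did not pass although it was close in size to that of Acadm (difference -1.09, SE 0.29, adjusted p = 0.0994). DESeq2 on the recovered reads gave an adjusted p of 0.00872 for Etfa and edgeR 0.106, and without WT library 3 limma gave 0.0405. Etfb stood at 15529, 16136 and 12135 RP10M in the WT libraries and 11191, 10539.5 and 11201 in the KO libraries. KO was lower without overlap and varied little (difference -0.40, SE 0.14, adjusted p = 0.184). Etfdh gave 614 ± 78.2 RP10M in WT and 517 ± 82.7 in KO and overlapped (difference -0.25, SE 0.20, adjusted p = 0.57). Etfa per 100 units of Etfdh signal was 301, 202 and 205 in WT and 153, 141 and 100 in KO, without overlap. Per 100 units of Etfb signal it was 12.9, 8.16 and 8.83 in WT and 8.38, 6.12 and 4.30 in KO, with overlap, and neither ratio was tested.

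Of the remaining 8 genes, none passed limma's test and none had an unadjusted p under 0.05. Acot13, an acyl-CoA thioesterase gene, gave 81137 ± 9419.9 RP10M in WT and 70909.7 ± 6229.9 in KO, with overlap between genotypes (difference -0.19, SE 0.13, adjusted p = 0.488). Acot2, a mitochondrial acyl-CoA thioesterase gene, stood at 407, 284 and 353 RP10M in the WT libraries and 265, 282 and 236 in the KO libraries. KO was lower without overlap, by a margin of 284 against 282 between the nearest libraries (difference -0.40, SE 0.22, adjusted p = 0.391). Ucp3, an uncoupling protein gene of muscle mitochondria, gave 111 ± 30.9 RP10M in WT and 107 ± 2.04 in KO (difference -0.023, SE 0.30, adjusted p = 0.982). Malonyl-CoA is made by the product of Acacb and removed by that of Mlycd. Acacb gave 952 ± 137 RP10M in WT and 983 ± 76.6 in KO (difference 0.054, SE 0.18, adjusted p = 0.913, turning to -0.016 with TMM scaling), and Mlycd 4366 ± 328 RP10M in WT and 4147 ± 406 in KO (difference -0.076, SE 0.15, adjusted p = 0.84). The genotypes overlapped for both.

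The last 3 of these are regulators. Ppara, the receptor that drives most genes of the pathway in the heart, stood at 1016, 603 and 525 RP10M in the WT libraries and 524, 544 and 467 in the KO libraries. WT library 1 lay far above the other 5 libraries, and the genotypes overlapped (difference -0.42, SE 0.25, adjusted p = 0.426). Ppargc1a, which encodes PGC-1α, stood at 1398, 581 and 704 RP10M in the WT libraries and 1198, 1174 and 1125 in the KO libraries. WT spanned both sides of the narrow KO range (difference 0.49, SE 0.29, adjusted p = 0.433). Ppard, a related receptor gene, gave 230.0 ± 44.0 RP10M in WT and 190.0 ± 14.5 in KO (difference -0.26, SE 0.24, adjusted p = 0.63).

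Part of the spread in these values followed single libraries. Each gene was set against its own mean over the 6 libraries on the log2 scale. The median deviation of the 34 genes was 0.31 in WT library 1, 0.11 in library 2 and -0.09 in library 3, and -0.03, -0.12 and -0.17 in the KO libraries. WT library 1 was the highest WT library for 25 of the 34 genes and WT library 3 the lowest for 25. Summed, the 34 genes made up 3.103%, 3.13% and 2.53% of the signal in WT and 2.74%, 2.55% and 2.64% in KO, so WT library 3 lay below the KO libraries. Without Acot13, a large part of that sum, the shares were 2.34%, 2.16% and 1.782% in WT and 2.09%, 1.777% and 1.93% in KO, and WT library 3 lay within the KO range. Without WT library 1 the median difference was -0.16 and 22 of the 34 genes were lower by sign. Without WT library 3 it was -0.36, and Eci1, Etfa and Etfb passed beside Acadm and Cpt1a. Without WT library 2, or without any 1 of the KO libraries, none of the 34 genes passed.

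Markers of fibroblasts and macrophages moved with the same libraries. The sum of 12 fibroblast markers was 968, 2549 and 6002 RP10M in WT libraries 1 to 3 and 4342, 7014 and 6752 in KO, with 1 of 10 tested passing. The sum of the macrophage markers was 323, 764 and 1014 in WT and 1023, 1270 and 1471 in KO, with none of 7 tested passing limma's test and 2 at an unadjusted p under 0.05. WT library 1 was lowest in both, and the KO libraries lay above WT for macrophages and overlapped WT library 3 for fibroblasts. The sum of 8 smooth muscle and pericyte markers lay at 3867 to 4731 in WT and 2154 to 3391 in KO, with 1 of 8 passing. That gene, Acta2, was a large part of the sum. It stood at 3154.8, 2283.5 and 2513.7 in WT and 1177.8, 524.5 and 521.8 in KO (limma adjusted p = 0.0195). By sign 5 of the 8 were lower and 3 higher, with Myh11 (0.58) and Cnn1 (2.73) higher without passing. The part of fibroblasts, macrophages, smooth muscle cells and pericytes, and of the atrial markers, in the differences of the 34 genes was not tested.

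**Figure D4:**
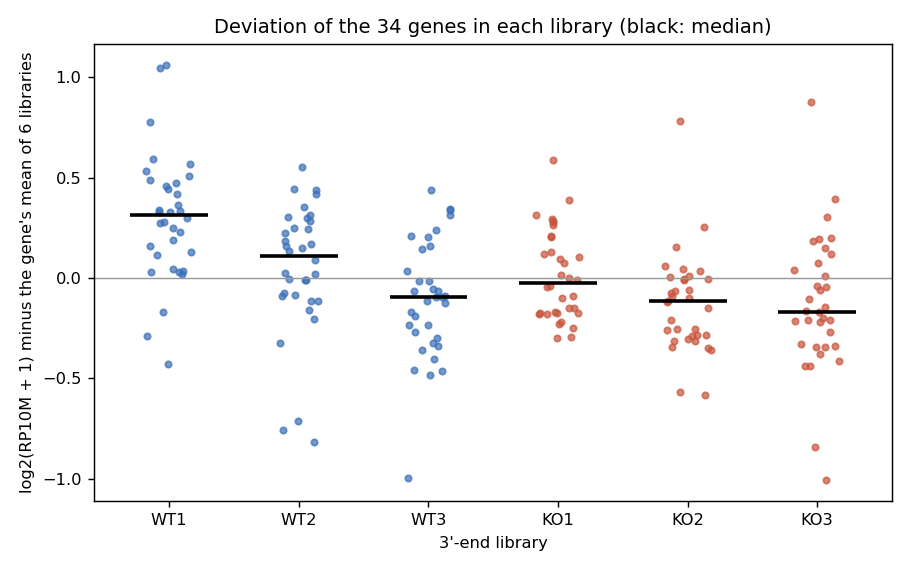
Deviation of each of the 34 genes from its own mean over the 6 libraries (y axis, log2 scale, 1 point per gene) in each 3′-end library (x axis), with black bars at the medians. The median falls from 0.31 in WT library 1 to -0.09 in WT library 3, which lies within the range of the KO libraries.

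Beyond the 34 genes, 88 further genes of the pathway in 5 lists were examined, of which 84 passed the filter on low values. Only Acot1 passed limma's test. 15 of the 84 (17.9%) had an unadjusted p under 0.05, close to the 17.1% of all genes. Acot1 encodes a cytosolic acyl-CoA thioesterase and stood at 93.6, 141 and 261 RP10M in the WT libraries and 22.5, 15 and 24 in the KO libraries. Every KO library lay far below WT, and the mean fell by 2.85 on the log2 scale (SE 0.45, limma adjusted p = 0.0157). Its adjusted p was 0.075 without WT library 2, and 0.0844 and 0.0795 without KO library 2 or 3. Acot1 and Acot2 are near-identical neighbours, and how the authors counted reads shared by them is not given in the sources used here, so the split between them is uncertain. Per 100 units of Acot2 signal, Acot1 gave 23.003, 49.7 and 74.0 in WT and 8.51, 5.33 and 10.2 in KO, a ratio that was not tested.

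By list, the median difference was -0.16 over 14 further genes of uptake, activation and carnitine transport, and 0.18 over 15 of mitochondrial oxidation and thioesterases. It was 0.22 over 15 genes of peroxisomal oxidation, 0.14 over 16 of lipid droplets and triglyceride, and 0.05 over 24 further regulators. For comparison, 1 of 42 nuclear genes of oxidative phosphorylation passed, lower in KO, with a median of -0.07. Of 17 genes of the TCA cycle none passed and 4 had an unadjusted p under 0.05 (median -0.03), while 4 of 23 glycolysis and glucose uptake genes rose (median 0.27). An unadjusted p under 0.05 was found for 23.8% of the oxidative phosphorylation genes and 47.8% of the glycolysis and glucose uptake genes. It was 29.4% for the 34 genes and 17.1% for all genes tested. By sign 64.3% of the oxidative phosphorylation genes were lower, against 70.6% of the 34 genes, 52.9% of the TCA cycle genes and 34.8% of the glycolysis and glucose uptake genes. The differences between these lists and the 34 genes were not tested.

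RASL-seq gave a second reading of 4 of the genes, at 3 ages. Depth ranged from 1998027 to 12876511 probe counts per library, and totals are given as counts per 1000000 counts of the library (CPM) over both isoforms. All 5 events are cassette exons, and 1 isoform made up nearly all counts of each. In Acadm the long isoform held 99.2% of counts, and in Slc27a1 3.62%. In Pnpla2 the short isoform held 99.7% of 1 event and 6 counts in all of the other, and the Echs1 event had a single short count over 18 libraries. With so few short counts, the ratios of the Echs1 event and of the Pnpla2 event with 6 could hardly pass any test. 0 of the 5 events passed edgeR's quasi-likelihood test of the ratio at any age, where 8.31%, 13.4% and 15.8% of the 2382 events tested passed at weeks 5, 9 and 18. Nor did any pass with limma, and 1 (Pnpla2 at week 9) had an unadjusted p under 0.05. In that event, which had 20 long counts over 18 libraries, the long share was 0.0515%, 0.0773% and 0.115% in WT and 0.631%, 0.634% and 0.655% in KO at weeks 5, 9 and 18. The genotypes did not overlap at week 9 and overlapped at the other ages (adjusted p = 0.37, 0.196 and 0.248).

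The totals of the same events measure how much of the spliced transcript was captured. At week 18, those of Acadm, Echs1 and Slc27a1 fell in KO, 3 of the 5 events, where 18.7% of the 2557 events tested passed and 7.7% passed lower. At week 5 that of Slc27a1 fell, where 8.06% passed and 3.32% passed lower. At week 9 none of the 5 passed with edgeR or DESeq2, 1 (Echs1) had an unadjusted p under 0.05, 12% of all events passed and 4.93% passed lower.

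At week 18 Acadm gave 756, 702 and 827 CPM in the WT libraries and 415, 332 and 586 in the KO libraries. The genotypes did not overlap (log2 difference -0.74, edgeR adjusted p = 0.0396). The adjusted p was 0.0947, 0.0625 and 0.104 without WT library 1, 2 or 3, and 0.0969 and 0.159 without KO library 1 or 2. At week 5 it gave 470.0, 353 and 381 CPM in the WT libraries and 313, 281 and 191 in the KO libraries, again without overlap and without passing (-0.55, adjusted p = 0.197). At week 9, the age of the 3′-end data, it gave 418, 629 and 378 CPM in the WT libraries and 300.4, 358 and 442 in the KO libraries. These overlapped (-0.33, adjusted p = 0.426), whereas the 3′-end signal of Acadm fell at that age. The probes and the 3′-end reads sample different stretches of the transcript in separate libraries, and the difference between the assays was not tested.

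Echs1 gave 843, 658 and 743 CPM in the WT libraries and 444, 348 and 383 in the KO libraries at week 18. All KO libraries were below all WT libraries (-0.90, edgeR adjusted p = 0.00325), and the adjusted p stayed between 0.00516 and 0.0232 when any 1 library of that age was left out. At week 9 it gave 690.0, 657 and 486 CPM in the WT libraries and 446, 398 and 425 in the KO libraries, without overlap and without passing (-0.49, adjusted p = 0.123). At week 5 it gave 396, 625 and 602 CPM in the WT libraries and 477, 483 and 262 in the KO libraries, with overlap (-0.32, adjusted p = 0.406). The 3′-end signal of Echs1 at week 9 overlapped between genotypes.

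Slc27a1 had few counts. It gave 37.9, 36.2 and 36.2 CPM in the WT libraries and 22.3, 16.5 and 17.5 in the KO libraries at week 18. The genotypes lay apart (-0.93, edgeR adjusted p = 0.00971), and the adjusted p stayed between 0.0127 and 0.0434 with any 1 library left out. At week 5 it gave 27.2, 21.7 and 15.4 CPM in the WT libraries and 14.3, 11.5 and 8.10 in the KO libraries, without overlap (-0.92, adjusted p = 0.0228). This call was lost without WT library 1 (adjusted p 0.15) or 2 (0.0563) and without KO library 2 (0.0547) or 3 (0.127). At week 9 it gave 23.02, 26.8 and 20.3 CPM in the WT libraries and 22.7, 19.9 and 23.9 in the KO libraries, which overlapped (-0.05, adjusted p = 0.941), as did its 3′-end signal.

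Neither Pnpla2 event passed at any age. The event with more counts gave 939, 918 and 885 CPM in the WT libraries and 674, 662 and 821 in the KO libraries at week 18 (-0.30, adjusted p = 0.275). The event with fewer gave 90.5, 91.3 and 92.7 CPM in the WT libraries and 74.7, 60.05 and 73.1 in the KO libraries (-0.36, adjusted p = 0.306). Both were lower in KO without overlap at that age, as were 18.7% of all events tested, and overlapped at weeks 5 and 9.

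No total changed its genotype difference between weeks 5 and 18 by edgeR's test of that change, which 0.704% of events passed. The change was -0.57 (adjusted p = 0.463) for Echs1, -0.18 (adjusted p = 0.93) for Acadm and -0.0017 (adjusted p = 1) for Slc27a1. The larger number of calls at week 18 is not shown by that test to be a change with age.

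**Figure D5:**
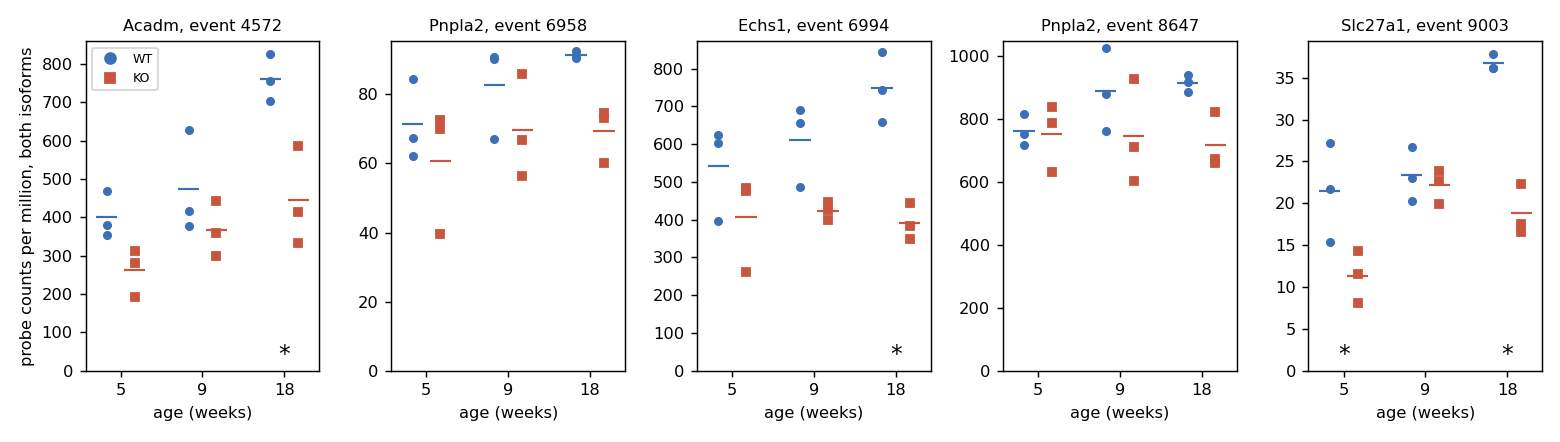
Total probe counts in CPM (y axis, from 0, scaled per panel) of the 5 events of the 34 genes in each WT and KO library at 5, 9 and 18 weeks (x axis), with bars at the group means and asterisks under the pairs that passed the test. Acadm, Echs1 and Slc27a1 passed at week 18, and Slc27a1 also at week 5.

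Among 21 events of 16 further pathway genes, 16 could be tested for the isoform ratio, and 1, 2 and 2 passed at weeks 5, 9 and 18. These are 6.25%, 12.5% and 12.5% of the 16, against 8.31%, 13.4% and 15.8% of all events tested, so the pathway events did not exceed the background. An event of Acaca was the only one that passed at all 3 ages. Acaca encodes the acetyl-CoA carboxylase isoform best known for making the malonyl-CoA of fatty acid synthesis. The long isoform of its event held 67.9% ± 8.74 of counts in WT at week 5 (SD, n = 3) and 83.8% ± 3.02 in KO. At week 9 these were 64.8% ± 8.31 and 81.7% ± 1.38, and at week 18 47.8% ± 0.981 and 84.2% ± 3.74. KO had more of the long isoform at every age. The log2 difference in isoform ratio was 1.32, 1.25 and 2.62 (edgeR adjusted p = 0.0137, 0.0154 and 1.01e-05). The week 5 call was lost with each age fitted alone (adjusted p 0.0677), without WT library 1 (0.118) and without KO library 3 (0.0785), and the week 9 call without WT library 1 (0.1) or KO library 2 (0.0731). The change between weeks 5 and 18 was 1.30 and did not pass (adjusted p = 0.307), where 0.63% of events did. Its total counts did not pass at any age.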

How the data were processed

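The 3′-end values were deposited as signal in reads scaled to 10000000 per library (RP10M) in 3 numbered columns per genotype, per the file headers. The RASL-seq table holds the raw counts that the authors deposited for both isoforms of an event. Bowtie 0.12.7, cutadapt 1.2.1 and mm9 are named in the submitters' processing notes, with no step given. Columns of a group differed by far more than sampling noise (chi-square per degree of freedom 5.84 to 64.6) and were taken as separate libraries. Whole reads were recovered for each column from the step between low values, and 99.99% to 100% came out whole within a tolerance of 0.1. WT library 2 sums to 9529444 RP10M and the others to about 10000000.

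The 34 genes and the lists were chosen with earlier results of these data known. The text gives all 34 genes, Rbfox2 and Rbfox1, and those of the further pathway lists that passed (up to 5 per list). It also gives all events of the 34 genes, and pathway events that passed at any age (up to 8). 3′-end values were tested with limma 3.58.1 (trend and robust, R 4.3.3) on log2(RP10M + 1), keeping genes whose mean reached 10 RP10M. Differences on that scale understate the change of low genes. Isoform ratios and event totals were tested with edgeR 4.0.16 (quasi-likelihood) over all 18 libraries, for events averaging at least 20 counts, with TMM scaling of totals. All p-values were adjusted over the whole table (Benjamini-Hochberg), with a threshold of 0.05, and are two-sided. The design planned limma for the 3′-end values, and edgeR and DESeq2 1.42.0 on recovered reads were alternatives. Others were the pseudocount, filters, scaling, a replicate block and leaving out each library. Rescaling WT library 2 was chosen after seeing the data. The tests were also run on simulated data with changes of known size. There all features had the same spread, libraries differed in depth only, and no isoform was rare. The real data differ in these points, so that run does not show how the tests perform on them. Probe counts carry no molecular identifiers, so their molecules need not be independent. The other samples of the series were not analysed here. Promoter sequences are those of RefSeq, GRCm38.p6.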

Additional observations from a re-analysis of the deposited data

How the results depend on the processing

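Leaving out 1 library, the test used and the scaling moved the calls more than the differences. Acadm was the only one of the 34 genes called lower. The number called lower was 0 with a pseudocount of 0.1, 0 with edgeR under TMM or RLE scaling and 0 with limma without trend and robust, which also called 0 higher. It was 2 with TMM scaling of the values (Cd36 and Acadm), 3 with DESeq2 (Cd36, Acadm and Etfa) and 2 with the replicate block (Acadm and Etfa). With 1 library left out it ranged from 0 to 4, and the number called higher from 0 to 1. Over all genes, 456 passed with DESeq2 (257 higher and 199 lower), 3 with limma without trend and robust, 338 with the replicate block (244 higher and 94 lower) and 18 to 409 with 1 library left out. The cause was not tested. The median difference of the 34 genes was negative under every alternative run. Each gene's mean within its genotype was subtracted from its log2 values, and what remained was correlated between genotypes. It was correlated at 0.279, 0.0593 and 0.193 for libraries of the same number, and each WT library correlated best with its own number. These are not correlations of the expression levels themselves. The headers give only the number, so whether such libraries were prepared together is not known. The main fit did not pair them. Signs of small differences that did not pass turned with scaling. Under TMM scaling, edgeR with TMM, edgeR with RLE and DESeq2 they were -0.019, -0.035, -0.028 and -0.028 for Acadvl, -0.029, -0.080, -0.074 and -0.074 for Echs1, and -0.016, -0.016, -0.011 and -0.011 for Acacb. With 1 library left out the difference ranged from -0.017 to 0.17 for Acacb, -0.074 to 0.22 for Acads, -0.071 to 0.20 for Acadvl, -0.37 to 0.11 for Cpt1b, -0.31 to 0.22 for Echs1 and -0.24 to 0.20 for Hadh. It ranged from -0.13 to 0.10 for Hadha, -0.13 to 0.0047 for Mlycd, -0.035 to 0.30 for Slc27a1, -0.17 to 0.19 for Ucp3 and -0.35 to 0.39 for Nrf1. For RASL-seq, 128 isoform ratios passed at week 5 with each age fitted alone. For the change from week 5 to 18, 23 ratios passed with no filter, 7 with limma and 8 with the replicate block, and 47 totals with DESeq2. With 1 library left out, 4 to 44 ratios and 11 to 56 totals passed that test, 206 to 320 ratios passed at week 9, 133 to 190 totals at week 5 and 199 to 380 at week 9, and 0 to 1 of the 5 events of the 34 genes at week 5. The log2 isoform ratio of Acadm at week 18 turned to -0.057 with limma (-0.29 to 0.28 with 1 library left out). That of Slc27a1 turned to 0.24 at week 5 with the replicate block (-0.86 to 0.61), ranged from -0.40 to 0.34 at week 18, and its change between these ages turned to -0.21 with limma and -0.38 with the block (-0.63 to 0.84). Totals turned to -0.020 for the more counted Pnpla2 event at week 5 with library totals (-0.033 to 0.17), and to 0.020 with library totals and 0.022 with DESeq2 for the Slc27a1 change between ages (-0.30 to 0.19). With 1 library left out they ranged from -0.36 to 0.069 for the other Pnpla2 event at week 5 and from -0.13 to 0.055 for Slc27a1 at week 9. Few counts limit the Slc27a1 event, and the rare isoforms of the other events set what ratios could show. Over single genes and events and all alternatives, 1025 values kept their direction and side of the threshold, 48 lost the call, 7 gained one and 61 changed sign.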

Other observations

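Single further pathway genes passed in their RASL-seq events, at shares no higher than those of all events tested. For Sirt1, a deacetylase gene whose product acts on PGC-1α, the long isoform held 95.9% ± 0.115 of counts in WT (SD, n = 3) and 89.0% ± 3.20 in KO at week 9 (log2 difference in isoform ratio -1.53, edgeR adjusted p = 0.0118). For an event of Ncor1, which encodes a corepressor of nuclear receptors, it held 92.6% ± 1.72 in WT and 97.2% ± 0.957 in KO at week 18 (log2 difference 1.49, edgeR adjusted p = 0.00148). Neither event passed at the other ages. The other Ncor1 events did not pass at any age. At week 18 the long isoform of 1 went from 61.5% in WT to 52.8% in KO (-0.52, adjusted p = 0.295). That of the other went from 33.6% to 42.7% (0.55, adjusted p = 0.135). The Sirt1 call was lost without KO library 2 (adjusted p 0.119), and the Ncor1 call held in every alternative run.

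Of the further pathway events, 18 could be tested for their totals. At week 5, 0 passed, and at each of weeks 9 and 18, 1 passed higher and 1 lower. Over all events tested, 8.06%, 12% and 18.7% passed at weeks 5, 9 and 18, so the pathway totals did not exceed the background. Among the totals, that of Acot9, a mitochondrial thioesterase gene, rose from 397 ± 11.5 CPM in WT to 643 ± 72.6 in KO at week 9 (log2 difference 0.73, edgeR adjusted p = 0.000436). At week 18 it rose from 390.3 ± 5.25 to 570.2 ± 18.4 CPM (0.59, adjusted p = 0.00251). Its 3′-end signal at week 9 was also higher in every KO library but did not pass (0.91, limma adjusted p = 0.114). The total of Pccb, a subunit of propionyl-CoA carboxylase, which handles odd-chain products, fell from 205 ± 10.9 CPM to 124 ± 19.3 at week 18 (-0.68, adjusted p = 0.00319). Its 3′-end signal at week 9 went the other way without passing, higher in every KO library (465 ± 95.9 RP10M in WT and 620.5 ± 43.6 in KO, log2 difference 0.43, limma adjusted p = 0.319). That of Nrf1, which encodes a factor of mitochondrial gene transcription, fell from 23.2 ± 1.62 to 14.8 ± 1.73 CPM at week 9 (-0.62, adjusted p = 0.0486), while its 3′-end difference at that age was near 0 (-0.012, limma adjusted p = 0.993). The Nrf1 call was lost without any 1 of the 6 libraries of that age (adjusted p 0.0583 to 0.164) and with RLE scaling (0.0513), library totals (0.0608), no filter (0.0693) or the replicate block (0.0813), while the Acot9 and Pccb calls held in every alternative run.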
